A study of Mus musculus with 38 samples.

Results

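The cytosolic ribosomal protein genes encode the proteins of the large and small ribosomal subunits that work outside mitochondria. They were taken as all mouse symbols that begin with Rpl or Rps followed by a digit, together with Rplp0, Rplp1, Rplp2 and Rpsa, leaving out pseudogenes named with -ps, the S6 kinases and Rps19bp1. The rule gave 92 genes among 55502 gene IDs. Of these, 46 encode the standard large-subunit proteins and 31 the standard small-subunit proteins. A further 8 are paralogs (Rpl3l, Rpl10l, Rpl22l1, Rpl39l, Rps27l, Rpl7l1, Rpl36al and Rps27rt). The annotation gives the remaining 7 a pseudogene type although their symbols lack -ps (Rpl37rt, Rps4l, Rps12l1, Rpl32l, Rpl6l, Rps3a3 and Rps3a2). The 77 standard genes all passed the filter on low counts in each of the count tables. Altogether 87 members were tested in double-floxed organoids, 89 in single-floxed organoids and 87 in the hairpin experiment.

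RNA was sequenced in bulk from 38 libraries of mouse lung adenocarcinoma organoids, which are tumour cells grown as small clusters in a gel. Each of the 8 lines came from 1 tumour of a mixed 129/B6 mouse carrying KrasFSF-G12D, p53frt and Rosa-FSF-CreERT2, the last of which makes a Cre recombinase that 4-hydroxytamoxifen (4-OHT) switches on. Cultures were given 2 uM 4-OHT or ethanol vehicle for 72 hours. Organoids with both Foxa1flox and Foxa2flox (double-floxed) supplied 5 4-OHT and 5 vehicle libraries: 1027B gave replicates 1 and 4, 1027D gave 2 and 5, and 1292B gave 3. Organoids with Foxa1flox supplied 6 and 6 from 3 lines (1552A, 1552B and 1552C), replicates 1 and 2, 3 and 4, and 5 and 6 in that order. Organoids with Foxa2flox supplied 4 and 4, with replicates 1 and 2 from 1267B and 3 and 4 from 1526C. Line 1027B also carried a hairpin against Nkx2-1 (shNKX2-1) or a scrambled one (shScramble), with 2 libraries of each under 4-OHT and 2 under vehicle. No line lacked floxed Foxa genes, so effects of 4-OHT or of active Cre cannot be told apart from loss of the genes. Libraries that repeat a line do not add a tumour, and the labels leave unsaid whether hairpin replicates were cultured apart. The p-values there measure only the spread between these libraries. When RNA was taken after treatment was not stated.

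Total counts ranged between 18.3 and 32.0 M (M, 1e6 counts) for double-floxed organoids, between 18.5 and 33.2 M for single-floxed organoids and between 13.6 and 16.3 M with hairpins. Foxa2 had at most 6.17 CPM in the 4-OHT libraries with Foxa2flox and at least 61.0 CPM in their vehicle libraries. CPM is a count per 1e6 counts of the library, whose total was scaled for single genes unless stated. Foxa1 lay between 8.92 and 18.2 CPM in double-floxed 4-OHT libraries, against 17.4 to 88.2 CPM in vehicle, and between 13.9 and 17.4 CPM in Foxa1-floxed 4-OHT libraries, against 41.8 to 80.3 CPM in vehicle. Nkx2-1 had 181 to 350 CPM in shNKX2-1 libraries, against 358 to 427 CPM in shScramble libraries. All 6 epithelial markers checked were detected in every library, with a summed level of at least 4978 CPM. The sums of the fibroblast and endothelial markers did not exceed 4.53 and 7.39 CPM, and that of the 5 leukocyte markers ran between 3.32 and 43.1 CPM. Mitochondrially encoded genes took 11.7% of counts in shNKX2-1 4-OHT replicate 2, and at most 4.30% in every other library.

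Ribosomal proteins are needed in matched amounts, one of nearly every kind per ribosome. Their mRNAs are among the most abundant in growing cells and usually begin with a run of pyrimidines at the very 5′ end, the TOP motif. Through it the mTOR pathway and the RNA-binding protein Larp1 adjust their translation and stability, while Myc raises their transcription along with that of ribosome assembly factors.

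The sequences around the annotated start site were read for genes that the results below turn on. RefSeq (GRCm38.p6) had promoter windows for 67 of the 92 members. Each line gives 25 bases before the start and 25 from the start onward on the gene's own strand, with capitals for the longest run of C and T within the 10 bases on either side of the start, extended outward where the run goes on. Rpl12, Rpl18 and Rps6 are shown because they were called lower in double-floxed organoids, and Rpl22l1 because it was called lower under shScramble. Rplp0 and Rpl7l1 are shown because their fitted changes were near 0. Rps28 is shown because, among standard genes, its level differed most between libraries with different numbers in their titles.
Rpl12: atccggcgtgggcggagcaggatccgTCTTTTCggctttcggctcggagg
Rpl18: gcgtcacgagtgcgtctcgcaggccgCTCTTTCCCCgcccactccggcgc
Rps6: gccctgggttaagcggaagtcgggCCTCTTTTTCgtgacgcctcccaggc
Rpl22l1: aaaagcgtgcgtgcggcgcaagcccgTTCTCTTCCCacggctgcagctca
Rplp0: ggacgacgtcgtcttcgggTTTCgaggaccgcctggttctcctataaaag
Rpl7l1: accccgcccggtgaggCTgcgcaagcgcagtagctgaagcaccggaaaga
Rps28: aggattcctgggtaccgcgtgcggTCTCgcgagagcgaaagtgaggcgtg

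These windows lie at chr2:32961687-32961736 (Rpl12, plus strand), chr7:45718046-45718095 (Rpl18, plus strand), chr4:86857343-86857392 (Rps6, minus strand), chr3:28805483-28805532 (Rpl22l1, plus strand), chr5:115559442-115559491 (Rplp0, plus strand), chr17:46782632-46782681 (Rpl7l1, minus strand) and chr17:33824538-33824587 (Rps28, minus strand). The marked run was 10 bases long in Rpl18, Rps6 and Rpl22l1 and 7 bases in Rpl12. It was 4 bases in Rplp0 and Rps28 and 2 bases in Rpl7l1. Over all matched members, 22 of 67 had an unbroken run of at least 8 C or T within the 10 bases on either side of the start (32.8%), against 2354 of 27025 symbols in the whole table (8.71%). Only the gene's own strand was searched, and a run found this way is not a mapped transcript end. Among standard genes with a window, the median fitted log2 change in double-floxed organoids was -0.37 for the 20 with a run and -0.36 for the 37 without one.

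The members took 2.33 to 5.47% of all counts in a library, with a median of 4.12% over the 38. In double-floxed organoids they took 3.57, 2.94, 2.57, 2.61 and 3.15% in 4-OHT replicates 1 to 5, against 3.87, 3.76, 4.03, 3.62 and 3.59% in vehicle replicates 1 to 5. The highest 4-OHT library was below the lowest vehicle library. The mean share was 2.97% ± 0.41 with 4-OHT and 3.78% ± 0.18 with vehicle (SD, n = 5 each). The summed epithelial markers differed between the same groups, with 6442 to 16741 CPM with 4-OHT, against 5301 to 9565 CPM with vehicle, and their part in the share was not tested.

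In Foxa1-floxed organoids the groups overlapped almost completely. The 4-OHT libraries had 4.67, 4.82, 4.89, 4.87, 4.15 and 4.72%, against 4.22, 4.47, 4.65, 4.88, 4.12 and 4.64% in vehicle libraries. Foxa2-floxed organoids had 3.34 and 2.49% in the 4-OHT libraries of line 1267B, against 3.08 and 2.96% in its vehicle libraries. Their line 1526C had 4.12% in both 4-OHT libraries, against 4.43 and 4.84% in vehicle. These 2 Foxa2-floxed lines differed more from each other than the treatments did within either line. The summed epithelial markers of Foxa2-floxed organoids were 8360 to 9354 CPM with 4-OHT, against 6295 to 8194 CPM with vehicle, and did not overlap.

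Under shNKX2-1 the share was 3.60 and 2.33% with 4-OHT, against 5.10 and 4.88% with vehicle. Under shScramble it was 3.36 and 3.38% with 4-OHT, against 4.22 and 5.47% with vehicle. In both hairpin settings the 4-OHT libraries lay below the vehicle libraries. The summed epithelial markers did not overlap under shScramble, with 8728 and 9442 CPM with 4-OHT, against 5477 and 6924 CPM with vehicle. Under shNKX2-1 they did, with 4978 and 6979 CPM, against 5450.5 and 6076 CPM. Their part in these shares was not tested. Expressed per line, the 4-OHT share was 0.638 times the vehicle share in 1292B, 0.824 times in 1027B and 0.828 times in 1027D. The same ratio was 0.594 in 1027B with shNKX2-1 and 0.696 with shScramble, 0.965 in 1267B, 0.889 in 1526C, and between 1.01 and 1.09 in the Foxa1-floxed lines. Counts are relative and the samples are bulk, so fewer cells of a type, less RNA per cell and more RNA from other genes cannot be told apart in these shares.

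**Figure D1:**
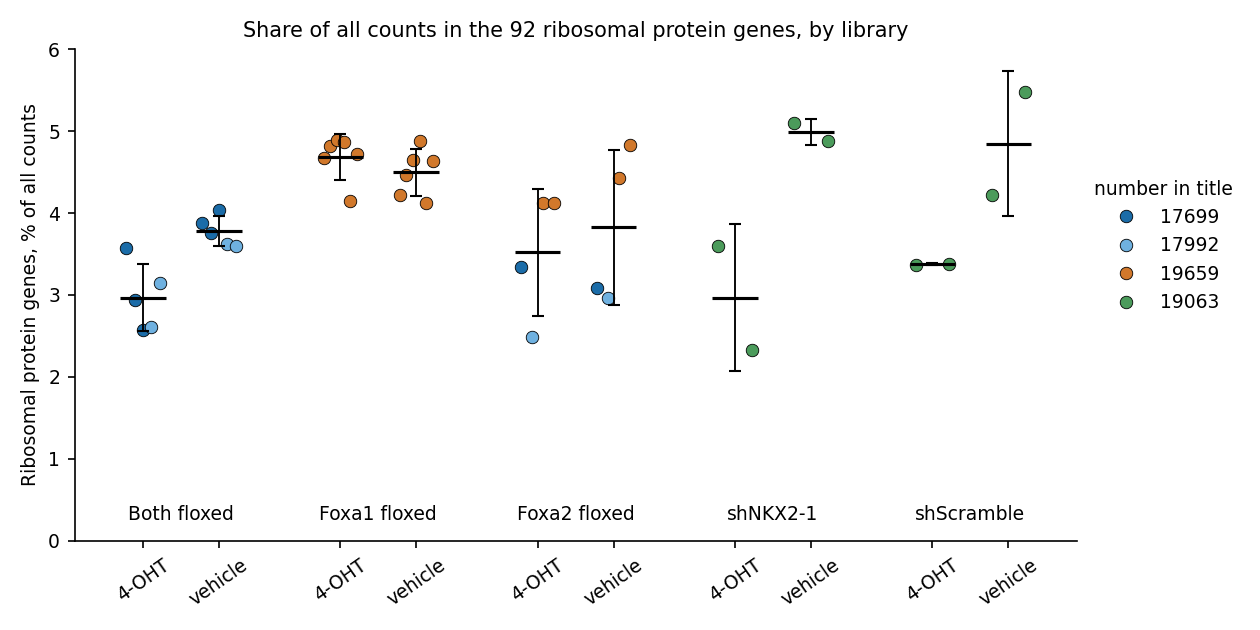
Share of all counts in the 92 ribosomal protein genes (% of the library total, vertical axis) in each of the 38 libraries, by genotype or hairpin and treatment. Points are libraries coloured by the number in the sample title, horizontal lines are group means and bars are SD. The double-floxed 4-OHT libraries sit between 2.57 and 3.57%, all below their vehicle libraries, and the Foxa1-floxed groups overlap.

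Gene by gene, the double-floxed organoids showed lower fitted levels across nearly the whole family. The fitted log2 change was below 0 in 85 of 87 members, as it was in 48.9% of all genes tested, and the median was -0.38, against 0.0088 over all 13384 genes. The quartiles of the members were -0.47 and -0.30. The medians were -0.36 for the 46 large-subunit and -0.40 for the 31 small-subunit genes. Few single genes passed the test: 3 members were called lower and 0 higher at an adjusted p under 0.05 (edgeR quasi-likelihood test, organoid line as block), where 1.99% of all genes were called lower and 1.93% higher. The members called are 3.45% of those tested, so the calls alone do not set them far from the background. At an unadjusted p under 0.05, 57 members were lower (65.5%), against 10.2% of all genes, and 0 were higher, against 9.88%. All 4-OHT libraries lay below all vehicle libraries for 23 members (26.4%), against 2.05% of all genes. Adding the number in the title to the line block gave 22 member calls among 1474 genes called (11% of all genes), DESeq2 gave 33 among 1674 (12.5% of all genes), and leaving line out of the model gave 0 among 86. Summed counts per line, with 3 lines, also gave 0 member calls, among 415 of 15172 genes called. Leaving out line 1027B gave 0 among 107 of 13722 genes, and leaving out 1292B gave 0 among 230 of 13543. Without line 1027D, 0 of 13183 genes were called at all, members included. Leaving out any of 7 single libraries (4-OHT replicates 2, 3 and 5 and vehicle replicates 2 to 5) gave 0, among 199 to 320 genes called. Without 4-OHT replicate 4 the count was 1, among 481 of 13740 genes. Without vehicle replicate 1 it was also 1, among 288 of 13687.

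The 3 genes called encode proteins of both subunits. Rpl12, a large-subunit protein near the base of the stalk (ENSMUSG00000038900, chr2:32961559-32965345), had 772, 510.2, 619.7, 828.8 and 570.3 CPM in 4-OHT replicates 1 to 5, against 1006, 886, 1060.5, 1149 and 777 CPM in vehicle. The groups overlapped by 1 library each, vehicle replicate 5 and 4-OHT replicate 4, which came from different lines. Its fitted log2 change was -0.58 (approximate SE 0.13, adjusted p = 0.048).

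Rpl18, another large-subunit protein (ENSMUSG00000059070, chr7:45715457-45720836), had 381, 278, 427, 429 and 304 CPM with 4-OHT, against 509.5, 486, 739, 585 and 471 CPM with vehicle. No 4-OHT library reached the lowest vehicle library. The log2 change was -0.62 (SE 0.13, adjusted p = 0.035), and Rpl18 was also called with RLE size factors and with library totals. Rps6, the small-subunit protein that S6 kinases phosphorylate (ENSMUSG00000028495, chr4:86854660-86857412), had 215, 157, 157, 180.1 and 178 CPM with 4-OHT, against 302, 284, 236, 243 and 260.1 CPM with vehicle. These groups did not overlap either. Its log2 change was -0.58 (SE 0.13, adjusted p = 0.045). Over 21 alternatives, Rpl12 was past the threshold in 3 (adjusted p between 0.00018 and 0.40), Rpl18 in 7 (7.3e-05 to 0.40) and Rps6 in 4 (0.00083 to 0.42).

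Other members had equal or larger fitted values without passing. Rpl3, which lines the peptidyl transferase centre, averaged 438 ± 69.5 CPM with 4-OHT and 689.6 ± 93.5 CPM with vehicle (SD, n = 5 each), with a log2 change of -0.67 and an adjusted p of 0.056. The X-linked Rps4x averaged 420.0 ± 106 CPM with 4-OHT and 643 ± 90.9 CPM with vehicle, with a log2 change of -0.64 and an adjusted p of 0.050. Rpl5 and Rpl11, which bind 5S rRNA and can hold Mdm2 away from p53, had log2 values of -0.59 (adjusted p = 0.058) and -0.30 (adjusted p = 0.18).

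The stalk proteins and Rpsa had fitted values closer to 0 than the median of the members. Rplp0, the stalk's anchor, had 1127, 1818, 1534, 1223 and 1022 CPM with 4-OHT, against 898, 1188, 2056, 1429.5 and 1016 CPM with vehicle. The groups were interleaved, and the log2 value was 0.07 (adjusted p = 0.92). Rplp1 and Rplp2, the acidic proteins that sit on Rplp0, had log2 values of -0.10 and -0.29 (adjusted p = 0.79 and 0.20). Rpsa, a small-subunit protein also described as a laminin receptor, had a log2 value of -0.15 (adjusted p = 0.54). Rplp0 and Rpl41 (0.04) were the only tested members whose fitted value was above 0. The lines differed in sign for both. Rplp0 had log2 differences of 0.05 in 1027B, 0.31 in 1027D and -0.42 in 1292B. Those of Rpl41 were -0.015, 0.31 and -0.38 in the same order.

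Medians were below 0 in all 3 double-floxed lines, with different sizes. Line 1292B had a median log2 difference of -0.59 over the 77 standard genes, with all 77 below vehicle. Line 1027D had -0.38 with 72 below, and line 1027B had -0.28 with 75 below. For single libraries against the vehicle mean of their line, the medians were -0.22 and -0.34 in 1027B and -0.48 and -0.31 in 1027D.

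**Figure D2:**
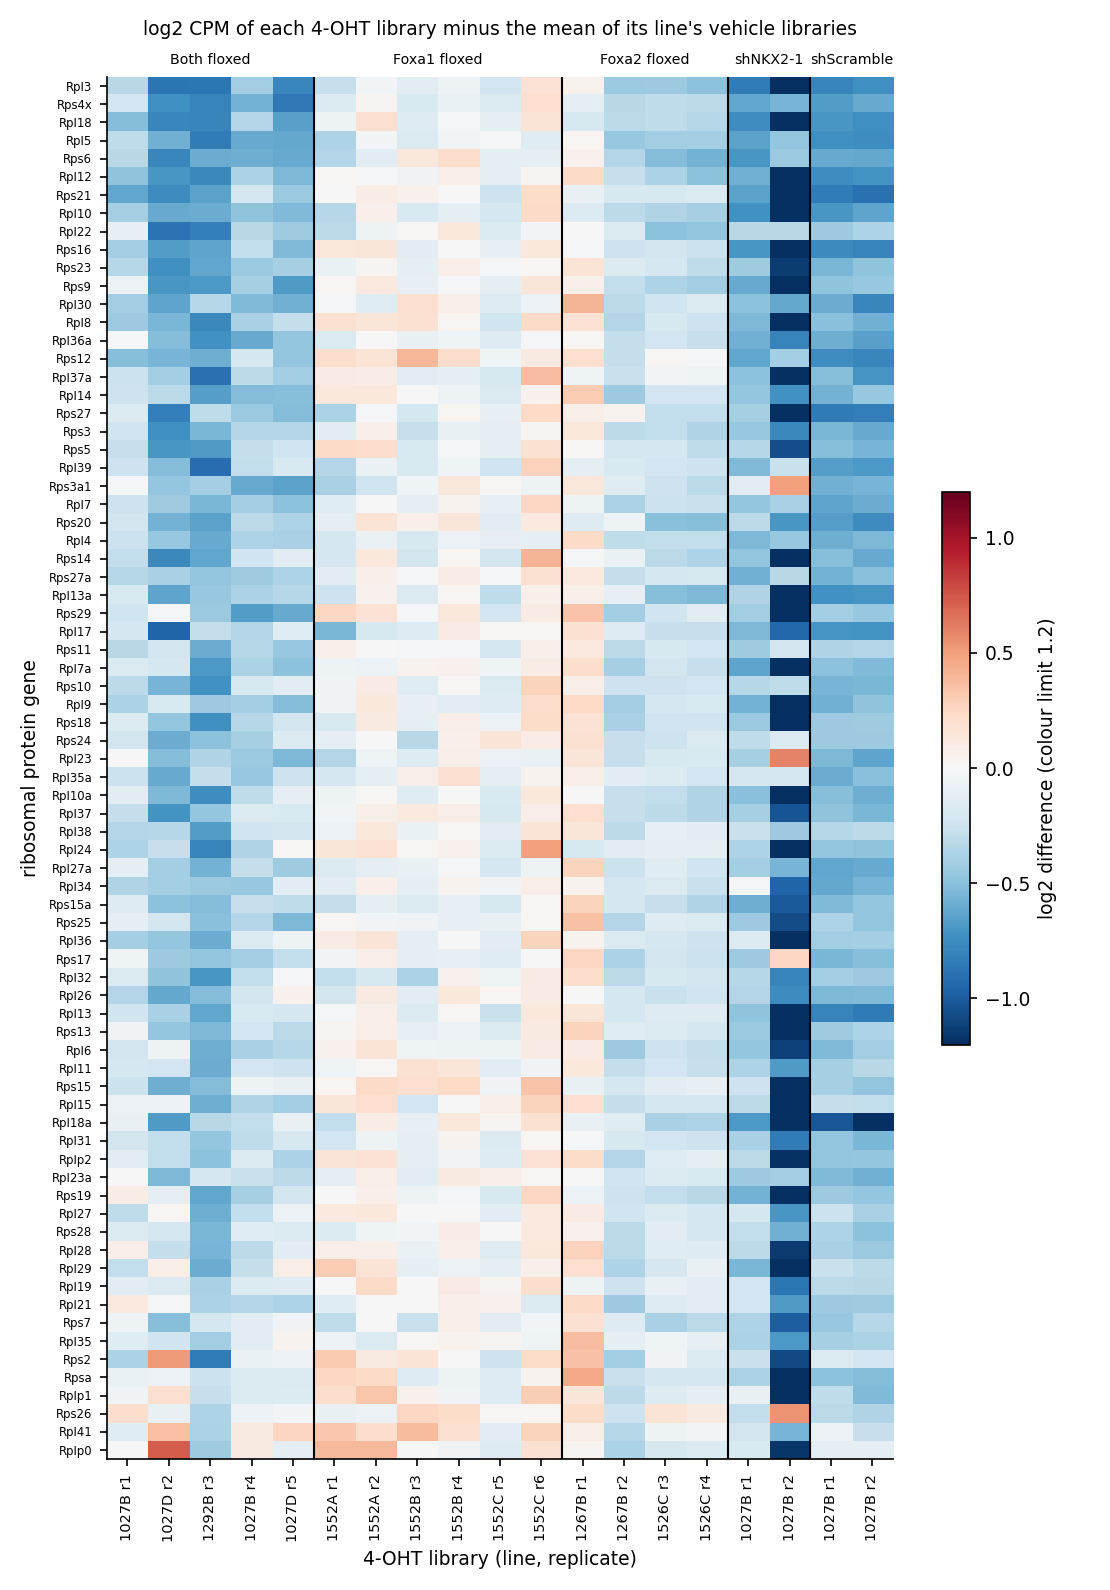
Log2 CPM of 76 of the 77 standard ribosomal protein genes (rows) in each 4-OHT library (columns, by line and replicate) minus the mean of its line's vehicle libraries; colours stop at 1.2 in either direction. Rows are ordered by the mean over the 5 double-floxed libraries. Nearly all rows are below 0 in double-floxed and hairpin libraries, Rplp0 and Rpl41 stand at the bottom, and the Foxa1-floxed columns lie around 0.

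In Foxa1-floxed organoids no shift of the family was detected. The median fitted log2 change was -0.0078 over 89 members, against 0.0081 over 16417 genes, with 48 members below 0 and 41 above (48.5% of all genes below). With library totals in place of TMM the median was 0.06 and 66 members were above 0, but the median of all genes then was 0.07. edgeR called 0 members, where 0.0122% of all genes (2 genes) were called. Before adjustment 1 member was lower (p under 0.05, against 4.87% of all genes) and 0 higher (6.6% of all genes), and DESeq2 called 1, where it called 1.49% of all genes. That member was Rpl22l1 in both cases, with 32.9, 37.2, 47.5, 56.2, 25 and 38.7 CPM in 4-OHT libraries, against 49.7, 56.9, 73.5, 75.3, 33.1 and 38.7 CPM in vehicle (log2 -0.43, edgeR adjusted p = 0.16). The medians of lines 1552A, 1552B and 1552C were -0.02, -0.03 and -0.0005.

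Rpl12, Rpl18 and Rps6 had fitted log2 values of -0.0078, -0.0054 and -0.06 in these organoids. Rps6, for example, had 528, 618, 648, 683, 541 and 542 CPM with 4-OHT, against 615, 739, 570.3, 611, 589 and 580.0 CPM with vehicle. Within the same organoids the largest fitted value above 0 among standard genes was that of Rpl41, 0.21 (adjusted p = 0.45).

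Foxa2-floxed organoids had a median between those of the other genotypes. The fitted log2 change was below 0 in 85 of 89 members, against 51% of all genes, with a median of -0.15 (-0.0060 over all genes). edgeR and DESeq2 each called 0 members, where edgeR called 1.55% of all genes lower and 1.82% higher and DESeq2 called 5.96%. Without adjustment, 14 members were lower at p under 0.05 (15.7%) and 0 higher, against 6.49% of all genes lower and 7.54% higher. All 4-OHT libraries lay below all vehicle libraries for 1 member (1.12%), close to the 1.26% of all genes. The 4 members with fitted values above 0 were Rpl35, Rps26, Rps27rt and the barely detected Rpl3l.

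The value rested mainly on line 1526C and on 1 library of the other line. The median over the 77 genes was -0.23 in line 1526C, with 75 below vehicle, and -0.09 in line 1267B, with 67 below. Replicate 1 of 1267B was above its vehicle mean by a median of 0.12, and replicate 2 was at -0.28. These 2 libraries carry different numbers in their titles (17699 and 17992), and the vehicle mean of the line pools both numbers. Without 4-OHT replicate 1 the fitted median of the members was -0.25 and 4 were called lower, among them Rpl3, Rpl12 and Rps6, while 887 of 16785 genes were called. Without line 1526C it was -0.08 with 0 called, and without line 1267B -0.24 with 2 called, among 1061 of 16818 genes. Rps6 had 210.4, 159, 487 and 470.0 CPM with 4-OHT, against 208, 198, 629.5 and 772 CPM with vehicle (log2 -0.34, adjusted p = 0.16). The first 2 values in each group are from line 1267B, and the last 2, from line 1526C, were all above them.

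The difference between the single-floxed genotypes was tested on counts summed per line. The Foxa1-floxed effect minus the Foxa2-floxed effect was above 0 in 85 of 89 members, against 51.2% of all genes, with a median of 0.17 (0.0083 over all genes). edgeR called 0 of 18384 genes, members included, and DESeq2 called 0 members, where it called 0.751% of all genes. Only Rps15 was higher at an unadjusted p under 0.05 (1.12% of members), against 2.8% of all genes. With 3 and 2 lines, a difference between the genotypes was therefore not shown. The double-floxed libraries are in a separate table, and their effect is set beside these values without a test.

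**Figure D3:**
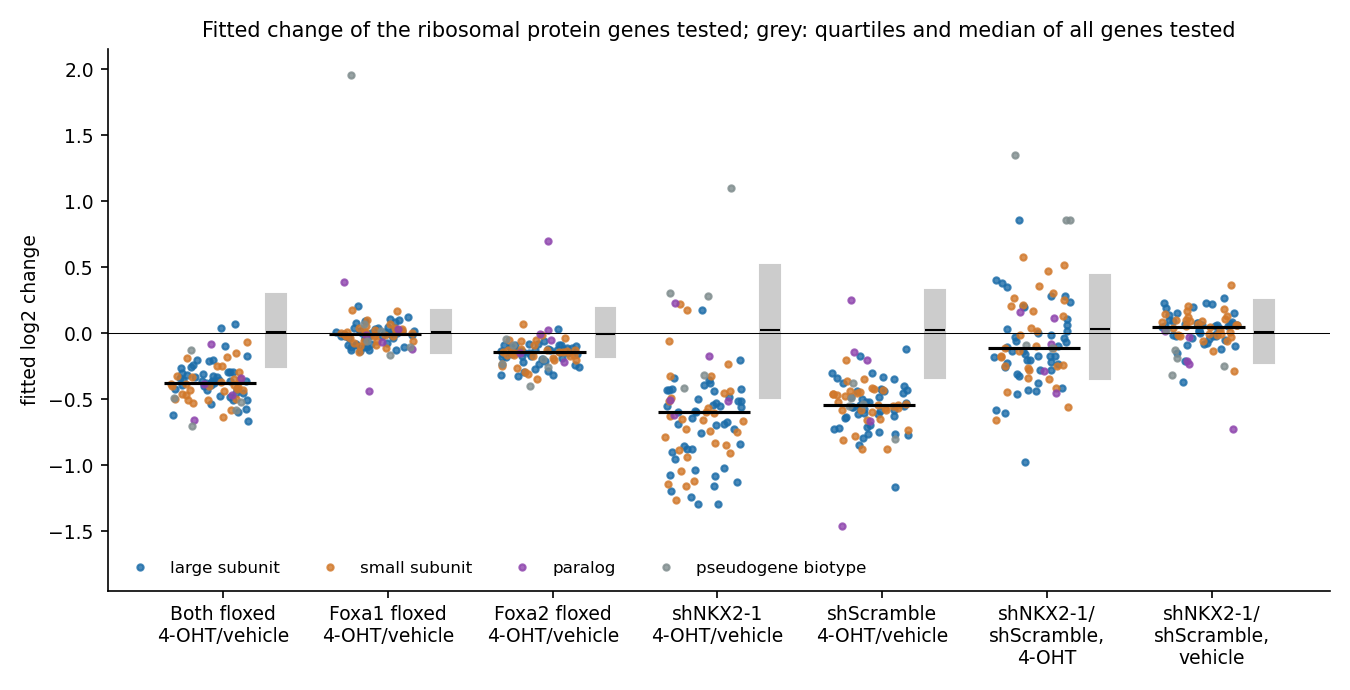
Fitted log2 change (vertical axis) of each ribosomal protein gene tested in 7 comparisons; points are genes coloured by subunit or type, black lines are medians over the members, and grey boxes are the quartiles of all genes tested with their median. The medians are -0.38 in double-floxed, -0.0078 in Foxa1-floxed and -0.15 in Foxa2-floxed organoids, and -0.60 and -0.54 under shNKX2-1 and shScramble.

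Line 1027B with shScramble was also compared between 4-OHT and vehicle, which adds no tumour to the double-floxed comparison. The fitted log2 change was below 0 in 86 of 87 members, against 47.8% of all genes, with a median of -0.54 (0.02 over all genes). The median was -0.75 without vehicle replicate 1 and -0.33 without vehicle replicate 2, the library with the highest share. All 4-OHT libraries lay below all vehicle libraries for 85 members (97.7%), against 28.6% of all genes with 2 libraries a side. edgeR called 1 member lower (1.15%), where 2.5% of all genes were called lower, and 18 were lower at an unadjusted p under 0.05 (20.7%, against 8.4%). DESeq2 called 2, Rpl22l1 and Rps12, and 7.55% of all genes.

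The call was Rpl22l1, the paralog of the RNA-binding protein Rpl22 (ENSMUSG00000039221, chr3:28805436-28807424). It had 26.8 and 33.1 CPM with 4-OHT, against 61.3 and 103 CPM with vehicle. The log2 change was -1.46 (SE 0.29, adjusted p = 0.030), and the call was lost without either 4-OHT library or without vehicle replicate 2. Rpl22 itself, which in mice restrains Rpl22l1, had 217 and 226 CPM with 4-OHT, against 244 and 353 CPM with vehicle (log2 -0.43, adjusted p = 0.48).

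Under shNKX2-1 the members also had mostly lower fitted values with 4-OHT, and the size varied with which 4-OHT library was kept. The fitted change was below 0 in 80 of 87 members, against 48.8% of all genes, with a median of -0.60 (0.02 over all genes). edgeR called 0, where 3.49% of all genes were called lower and 2.65% higher. Unadjusted, 31 were lower at p under 0.05 (35.6%, against 11.3%) and 0 higher (against 13%), and DESeq2 called 8, where it called 12.3% of all genes. All 4-OHT libraries lay below all vehicle libraries for 77 members (88.5%), against 26.2% of all genes. Without 4-OHT replicate 2 the median was -0.42 with 0 called. Without 4-OHT replicate 1 it was -0.88 with 57 members called lower and 2 higher, while 6945 of 15223 genes were called. Each of these fits leaves 1 library in the 4-OHT arm, which is then assumed to vary like the other groups, as in every hairpin fit with a library left out. With library totals the median of all genes was -0.08 and that of the members -0.70.

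Replicate 2 is the library with 11.7% mitochondrial counts, and the members did not move together in it. Its median log2 difference from vehicle over the 77 genes was -1.01 with 73 below, against -0.43 with 77 below in replicate 1. Rplp1 had 524 and 99.6 CPM in the 4-OHT libraries, against 549 and 565 CPM in vehicle. Rpl18 had 354 and 130.0 CPM with 4-OHT, against 622 and 564 CPM with vehicle. Rps26, a small-subunit protein near the mRNA exit, was higher in that library than in either vehicle library, with 432 and 769 CPM, against 567 and 496 CPM in vehicle. Whether the mitochondrial share has a part in these values was not tested.

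The hairpin itself was not accompanied by a called change. In vehicle, shNKX2-1 over shScramble gave a median log2 value of 0.04 with 53 of 87 members above 0, and 0 called by edgeR or DESeq2, where edgeR called 0.214% and DESeq2 1.96% of all genes. The sign of that median was not stable, with -0.18 without shScramble vehicle replicate 1 and 0.26 without replicate 2. Rpl22l1 alone was lower at an unadjusted p under 0.05 (log2 -0.72), against 2.91% of all genes. With 4-OHT the median was -0.11 and edgeR and DESeq2 again called 0, where edgeR called 1.51% and DESeq2 4.87% of all genes. Rpl23 and Rpl37rt were higher at an unadjusted p under 0.05, against 8.62% of all genes. Without shNKX2-1 4-OHT replicate 2 the median was 0.16 with 0 called, and without replicate 1 it was -0.43 with 38 called, among 5776 of 15223 genes. The interaction, the 4-OHT effect under shNKX2-1 minus that under shScramble, had a median of -0.11 and 0 members called by edgeR or DESeq2, where edgeR called 0% and DESeq2 0.581% of 14465 genes. Unadjusted, at p under 0.05, it had 0 members in either direction, against 3.06% of all genes higher and 2.2% lower. Without shNKX2-1 4-OHT replicate 1 it had 25 members called, among 3605 of 15223 genes, and without replicate 2 its median was 0.13 with 0 called.

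**Figure D4:**
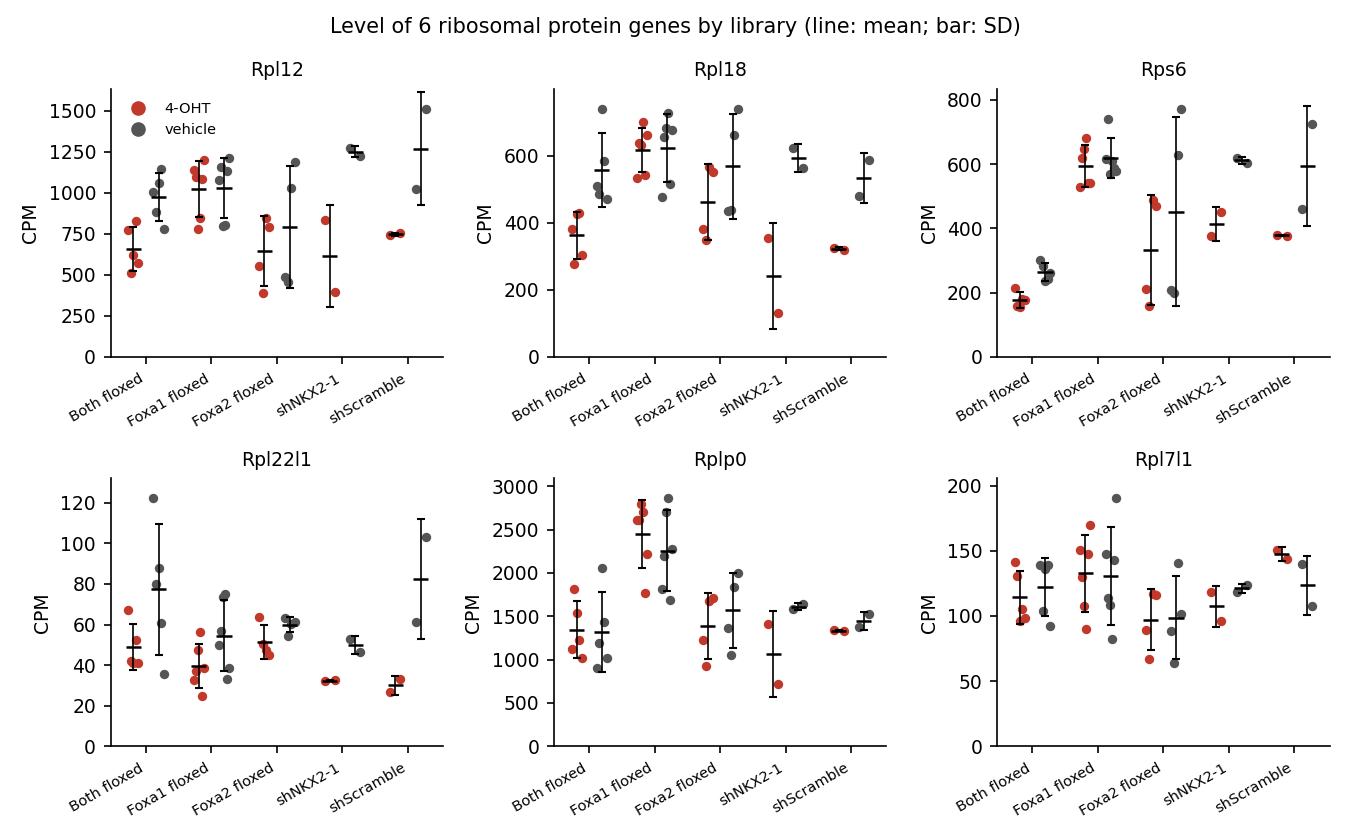
CPM (vertical axes, from 0) of Rpl12, Rpl18, Rps6, Rpl22l1, Rplp0 and Rpl7l1 in every library, with 4-OHT left of vehicle within each genotype or hairpin; black lines are group means and bars are SD. Rps6 lies between 157 and 302 CPM in double-floxed libraries without a hairpin and at or above 528 CPM in all Foxa1-floxed ones. These groups also carry different title numbers, which cannot be told apart from genotype here. Rplp0 and Rpl7l1 overlap between treatments in double-floxed organoids.

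The paralogs had levels per length below the lower quartile of the standard genes and did not all follow their partners. Per length (TPM, counts per base of summed exon length scaled to a fixed total), the standard genes had a median of 837 TPM over the libraries, with quartiles of 525 and 1174 TPM. The highest medians were those of Rplp1 (3769 TPM), Rplp0 (3325 TPM) and Rpl4 (2720 TPM), and the lowest among standard genes was that of Rps15a (163 TPM). The order depends on the annotated length, since Rps15a has the longest summed exons of the members (6270 bases). By mean CPM the lowest standard gene was Rpl24 (54.7 CPM), against 288.5 CPM for Rps15a. Rps27l reached a median of 218 TPM, Rpl36al 156 TPM, Rpl7l1 116 TPM and Rpl22l1 82.5 TPM. The muscle paralog Rpl3l had 0.264 TPM. The testis paralogs Rpl10l and Rpl39l had 0 and 2 counts over all 38 libraries.

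Rpl7l1, a nucleolar relative of Rpl7, had 142, 131, 96.2, 105 and 98.1 CPM in double-floxed 4-OHT libraries, against 139, 104, 136, 139 and 92.7 CPM in vehicle. Its log2 value was -0.081 there (adjusted p = 0.85) and 0.25 under shScramble (adjusted p = 0.70). By double-floxed line, the log2 differences of Rpl7l1 were -0.19 in 1027B, 0.21 in 1027D and -0.50 in 1292B. Rpl7 had log2 values of -0.42 in double-floxed organoids (adjusted p = 0.084) and -0.63 under shScramble (adjusted p = 0.25). Rpl7l1 and Rpl36al were the only tested members whose shScramble groups were not ordered with 4-OHT below vehicle. Rps27l, a p53 target in human cells, had a log2 value of -0.34 in double-floxed organoids (adjusted p = 0.41), against -0.46 for Rps27 (adjusted p = 0.16). Rpl36al and Rpl36a had -0.47 and -0.48 (adjusted p = 0.19 and 0.17). Because the sources do not say how reads matching several places were treated, counts of paralogs and of the pseudogene-type members are uncertain as to which copy they came from.

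How closely each member followed the rest was measured as Pearson's r between its log2 CPM and that of the summed other members, each centred on its group, over the 38 libraries. The median r of the standard genes was 0.73, and 26 of the 77 exceeded 0.8. Rpl19 (0.94), Rpl31 (0.93) and Rpl3 (0.92) were among those that followed the rest most closely. Rpl7 (-0.05), Rpl22 (0.0092) and Rps27 (0.16) were farthest from it. These values are descriptions, since repeat libraries share lines and all share library depth. Centring was by group and not by line, so differences between the lines of a group remain in r. In vehicle, the Foxa2-floxed line with the higher member share exceeded the other by log2 0.78 for Rpl19, 1.03 for Rpl31 and 1.03 for Rpl3. The values for Rpl7, Rpl22 and Rps27 were -0.56, -0.33 and -0.36. How far such differences set the ranking was not tested.

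Levels of many members also differed between libraries with different title numbers. Double-floxed libraries and those of line 1267B carry the number 17699 or 17992 in their titles, all other single-floxed libraries 19659, and the hairpin libraries 19063. The labels used here do not say what these numbers stand for. The vehicle libraries of line 1526C (19659) exceeded those of line 1267B (17699 and 17992) by a median log2 of 0.64 over the 77 genes, with a range of -0.56 to 1.91. For these comparisons CPM was an unscaled share of a library's total. Line 1027B permits the same comparison within a line, though across separate count tables. There, shScramble vehicle libraries (19063) exceeded the vehicle libraries without a hairpin (17699 and 17992) by a median of 0.36, ranging between -0.45 and 1.84.

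The same genes led both differences. Rps28, a small-subunit protein, had 469 CPM in line 1027B under number 19063, against 130.2 CPM under 17699 and 17992, and 288 CPM in line 1526C, against 76.6 CPM in line 1267B. Rpl5 had 962 CPM, against 290.0 CPM, in line 1027B, and 1024 CPM in line 1526C, against 336 CPM in line 1267B. Rps6 had 601 CPM, against 270.1 CPM, in line 1027B, and 701 CPM in line 1526C, against 209.6 CPM in line 1267B. Rpl7 and Rpl22 did not share the pattern and were lower in both comparisons. Of the 77 genes, 9 exceeded a log2 difference of 1 within line 1027B and 21 between the Foxa2-floxed lines, and 8 exceeded it in both (Rps28, Rpl5, Rpl31, Rpl27, Rpl27a, Rpl35, Rps6 and Rpl13). Pearson's r between the 2 differences was 0.79 across the 77 genes, as a description, since genes are not replicates. Between lines 1027B and 1027D, which share title numbers, the median was 0.03, and single genes ranged between -0.70 and 1.03.

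The title number goes with the line or the hairpin in every such pair, so they cannot be told apart. Within every line the 4-OHT and vehicle libraries carry the same title numbers.

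**Figure D5:**
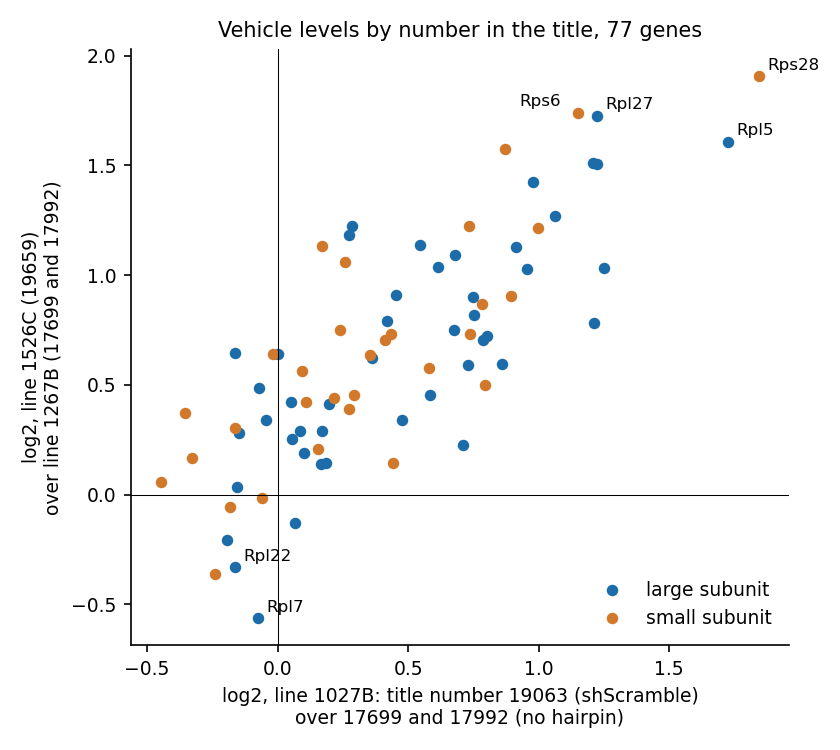
Log2 difference in vehicle CPM of the 77 standard genes within line 1027B (title number 19063 over 17699 and 17992, horizontal axis) and between Foxa2-floxed lines 1526C and 1267B (19659 over 17699 and 17992, vertical axis); points are genes coloured by subunit. The points run together along a rising band, with Rps28 and Rpl5 at the top right and Rpl7 and Rpl22 below 0 on both axes.

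Genes that work with ribosomal proteins were read from fixed lists. Of 20 other TOP mRNAs, which encode translation factors and similar proteins, 18 were fitted lower in double-floxed organoids (median -0.28), 15 in Foxa1-floxed (-0.03), 18 in Foxa2-floxed (-0.13), 14 under shNKX2-1 (-0.26) and 20 under shScramble (-0.36). Of these, 1 was called in 1 comparison, under shNKX2-1, where 3.49% of all genes were called lower. It was the elongation factor subunit Eef1g, with 583 and 384 CPM with 4-OHT, against 997 and 1112 CPM with vehicle (log2 -1.13, adjusted p = 0.046).

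The 36 ribosome assembly genes had medians of either sign. They were fitted lower in 34 cases in double-floxed organoids (median -0.21) but higher in 33 in Foxa1-floxed organoids (median 0.21), in 24 in Foxa2-floxed organoids (0.07), in 21 under shNKX2-1 (0.09) and in 24 under shScramble (0.11). The value under shNKX2-1 is no larger than the shift that library totals gave to all genes there. edgeR called 0 of them in each of these comparisons. At an unadjusted p under 0.05, 5 of 36 were lower and 1 higher in double-floxed organoids, against 10.2% and 9.88% of all genes. In Foxa1-floxed organoids 0 were lower and 1 higher, against 4.87% and 6.6% of all genes. Foxa2-floxed organoids had 0 in either direction, against 6.49% lower and 7.54% higher. Under shNKX2-1, 2 were lower and 3 higher, against 11.3% and 13% of all genes. Under shScramble, 0 were lower and 1 higher, against 8.4% and 6.62%.

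Of the 14 regulators, among them Myc, Mtor and Larp1, 1 was called, the Myc relative Mycn under shNKX2-1. It had 32.3 and 10.1 CPM with 4-OHT, against 148 and 75.1 CPM with vehicle (log2 -2.39, adjusted p = 0.045). The 78 mitochondrial ribosomal protein genes, whose products form the separate ribosome of mitochondria, had medians of -0.14 in double-floxed organoids with 57 lower, 0.06 in Foxa1-floxed organoids with 24 lower and 0.01 in Foxa2-floxed organoids with 32 lower. Under shNKX2-1 the median was -0.15 with 50 lower, and under shScramble 0.01 with 38 lower. Mrpl50 was called lower in double-floxed organoids (means 32.3 CPM with 4-OHT and 68.5 CPM with vehicle, log2 -1.09, adjusted p = 0.033). Mrpl4 was called lower under shNKX2-1 (means 13.7 CPM with 4-OHT and 29.8 CPM with vehicle, log2 -1.11, adjusted p = 0.045). Beside these calls, 1.99% of all genes were called lower in double-floxed organoids and 3.49% under shNKX2-1. The list medians are descriptions beside those of all genes given above, and no difference between lists was tested.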

How the data were processed

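Bulk RNA was measured in 38 libraries. The deposited tables hold raw whole-number counts per Ensembl gene, made by the authors; per the submitters' processing notes the tools were STAR 2.7.6a, featureCounts 1.5.1 and DESeq2 with build GRCm38. Neither the strand setting nor the handling of reads with several matches was stated. Gene symbols were matched to the gene IDs through the annotation. The members, lists and tests were chosen with earlier results of these data known.

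Samples were grouped by genotype or hairpin and treatment as the labels give them. Genes were filtered with filterByExpr by group and tested on all genes together with edgeR 4.0.16 (limma 3.58.1, R 4.3.3): TMM scaling, quasi-likelihood F test, Benjamini-Hochberg adjustment, threshold 0.05. Organoid line was a block in the floxed comparisons, since the labels name the line of each library and libraries of a line come from the same tumour. The Foxa1-floxed effect minus the Foxa2-floxed effect was tested on counts summed per line. Standard errors are approximate, from the fold change and F statistic. CPM values of single genes were scaled by TMM within each count table. Those of summed markers and of the title number comparisons were unscaled shares of a library's total. Before log2, 0.5 was added. The depth of 13.6 to 33.2 M counts bounds the precision of low genes. The test was tested on simulated data.

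Members named are those called (up to 6 per direction), the 6 with the highest mean CPM, the 6 most variable within groups, paralog pairs, the stalk proteins, Rpsa, Rps6, Rpl5 and Rpl11, and up to 4 called genes per other list. Names outside this rule (such as Rps28, Rpl41, Rps26 and genes at the ends of a ranking) were chosen after their values were seen. Values of 1 member are not reported here by name; it stays in all counts and medians. Alternatives were DESeq2 1.42.0, RLE size factors, library totals, TMM without the members, no filter, other blocks, and leaving out each library or line; those for the difference between single-floxed genotypes were added after seeing the data.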

Additional observations from a re-analysis of the deposited data

Results flagged for a closer look

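Shares and single genes were checked within each group of 4 to 6 libraries, without regard to line. In 9 of 189 such checks, 1 library stood apart from the rest by Dixon's test, where chance gives about 1 in 20. The share of counts in ribosomal protein genes was 4.15% in Foxa1-floxed 4-OHT replicate 5, against 4.67 to 4.89% in the other libraries of its group. In that group Rpl27 had 389.8 CPM in replicate 6 (others 309.4 to 326 CPM), and Rps4l, a pseudogene-type member, had 3.63 CPM in replicate 2 (others 0 to 1.32 CPM). In Foxa1-floxed vehicle libraries Rps6 had 739 CPM in replicate 2 (others 570.3 to 615 CPM).

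Among double-floxed 4-OHT libraries, Rpl36a had 140.7 CPM in replicate 1 (others 84.9 to 93.8 CPM). In replicate 2, of line 1027D, Rpl36al had 73.0 CPM (others 39.5 to 49.1 CPM) and Rps27l had 71.3 CPM (others 41.4 to 49.8 CPM). In Foxa2-floxed organoids, Rps4l had 4.80 CPM in 4-OHT replicate 2 and 5.01 CPM in vehicle replicate 2, both of line 1267B, and at most 0.052 CPM in the others of either group. What sets these libraries apart was not tested.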

How the results depend on the processing

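Of 278 recomputed counts, medians and shares, 236 stayed within 1.5 times the count or within the spread between replicates, though medians near 0 could turn sign. The double-floxed count of 3 called members was 33 with DESeq2, 22 with a replicate block of line and title number, 1 with RLE size factors, 1 with library totals, 0 on counts summed per line, 0 with no replicate block and 0 to 3 when a library or line was left out. With no filter on low counts it was 3, with 0 genes shared (Rpl3, Rps4x and Rpl22l1). The Foxa1-floxed count of 0 was 1 with DESeq2 and 1 with no filter, and the Foxa2-floxed count of 0 ran between 0 and 4 with a library or line left out. Under shScramble the count of 1 was 2 with DESeq2, 5 with no filter and 0 to 1 with a library left out, where the median ran between -0.75 and -0.33. Under shNKX2-1 the count of 0 was 8 with DESeq2, 26 with no filter and 0 to 59 with a library left out, and the median ran between -0.88 and -0.42. All genes called with no filter numbered 2455 of 25049 under shNKX2-1, 1372 of 25049 under shScramble and 1141 of 32375 in Foxa1-floxed organoids. For shNKX2-1 over shScramble in 4-OHT, 1058 of 25049 genes were called with no filter. In double-floxed organoids, 498 of 13384 genes were called with RLE size factors and 558 of 13384 with library totals. For shNKX2-1 over shScramble, leaving out a library gave medians of -0.18 to 0.26 in vehicle. In 4-OHT it gave medians of -0.43 to 0.16 and counts of 0 to 38, and the count was 1 with no filter. The interaction ran between 0 and 25 calls. The mean shScramble 4-OHT share was 3.49% without mitochondrial genes in the total and 3.42% with pseudogenes added. The shNKX2-1 4-OHT mean was 3.20% without mitochondrial genes, against 2.97% with them, and replicate 2 was 2.64%, against 2.33%. The cause of these changes was not tested.

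The pairing by line comes from the labels. In the hairpin groups the replicate numbers follow accession order only, and a replicate block on them left the shScramble count at 1. For single genes, 3845 alternatives were computed, most of them for values not called in the main fit. A call of the main fit was lost in 52, and a call was gained in 78. All losses were in Rpl12, Rpl18 and Rps6 in double-floxed organoids and Rpl22l1 under shScramble. Rpl12 kept its call in 3 of 21 alternatives, Rpl18 in 7 of 21, Rps6 in 4 of 21 and Rpl22l1 in 7 of 10. The fitted sign differed in 208 of the 3845, of which 20 were under library totals. Of the 208, 0 were past the threshold in either fit. Depth limits values of the barely detected members such as Rpl3l, Rpl39l and Rps4l.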
